A study of Mus musculus with 50 samples.

Results

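Cd163, Cd5l, Marco, Slc40a1 and Csf1r are 5 genes of resident liver macrophages (Kupffer cells) among the 1000 gene targets of an in situ RNA imaging panel (CosMx), and their levels were read in 49665 segmented cells of mouse liver. The 5 genes were picked by name, with earlier results on these tissue sections known, for the level of Cd163 relative to the others in cells with 2 or more counts of Cd5l and Marco together. That minimum took 3280 cells, 6.60% of all cells kept. Because Cd5l and Marco chose these cells, their levels there are given as a description, and the tests in these cells concern Cd163, Slc40a1 and Csf1r.

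Control livers came from wild-type C57BL/6 mice, and HIRA KO livers came from C57BL/6 mice with floxed alleles of Hira (HIRA fl/fl), which encodes a histone H3.3 chaperone. Mice of both groups were injected at 6 months of age with AAV8-TBG-Cre, a virus that expresses Cre recombinase from a hepatocyte promoter, and sections of the median lobe were taken 12 months later, at 18 months of age. Macrophages are therefore not the cells in which the promoter is active, and Hira itself is not on the panel. Each group had 25 fields of view in 3 tissue areas, taken here as replicates. The areas held 6.17 to 8.62 gene counts per 1000 square pixels of cell in control and 10.3 to 11.2 in HIRA KO livers. Their median cell area was 11979 to 16558 square pixels in control and 8691 to 11465 in HIRA KO livers. The minimum of 2 counts was not adjusted for these differences. The labels name no mouse, so p-values measure the spread between areas, and all areas lay on 1 slide with controls on 1 side and HIRA KO on the other, so side of slide and genotype cannot be told apart.

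Kupffer cells line the liver sinusoids and clear particles, aged red cells and free haemoglobin from portal blood. CD163 is the receptor that takes up haemoglobin bound to haptoglobin, and SLC40A1 (ferroportin) exports the iron recovered from it. MARCO is a scavenger receptor for bacteria and particles, CD5L is a secreted protein of tissue macrophages, and CSF1R is the receptor for the growth factor CSF1 on which macrophage survival depends. The transcription factors PU.1 and MAF are general regulators of macrophage genes.

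The start regions of the members differed in the short motifs that such factors are known for. In GENCODE vM21 (build GRCm38), Cd163 lies on chr6:124304656-124330527 (plus strand), Cd5l on chr3:87357881-87371073 (plus strand), Marco on chr1:120474538-120505024 (minus strand) and Slc40a1 on chr1:45908068-45926523 (minus strand). RefSeq (GRCm38.p6) start regions were matched for 3 of the 5 members, and are shown to set Cd163, the member whose level differed between the groups, beside the genes that chose the cells. Each runs 5′ to 3′ along its gene, from 250 bases before to 50 bases after the start, at chr6:124304401-124304700 (plus) for Cd163, chr3:87357631-87357930 (plus) for Cd5l and chr1:120504975-120505274 (minus) for Marco. Capitals mark GAGGAA, the purine core bound by PU.1 and other ETS factors, and TGCTGA, the core of a MAF recognition element, on either strand.
Cd163: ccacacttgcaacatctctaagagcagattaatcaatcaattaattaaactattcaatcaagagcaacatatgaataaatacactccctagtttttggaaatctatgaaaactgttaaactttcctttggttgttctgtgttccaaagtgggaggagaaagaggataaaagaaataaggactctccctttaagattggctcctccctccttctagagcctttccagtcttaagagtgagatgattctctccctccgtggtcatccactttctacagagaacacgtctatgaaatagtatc
Cd5l: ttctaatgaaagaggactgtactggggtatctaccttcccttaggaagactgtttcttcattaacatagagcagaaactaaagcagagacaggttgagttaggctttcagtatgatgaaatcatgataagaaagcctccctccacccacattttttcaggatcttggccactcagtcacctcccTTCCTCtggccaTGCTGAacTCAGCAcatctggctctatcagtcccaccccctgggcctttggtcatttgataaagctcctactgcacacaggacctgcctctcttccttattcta
Marco: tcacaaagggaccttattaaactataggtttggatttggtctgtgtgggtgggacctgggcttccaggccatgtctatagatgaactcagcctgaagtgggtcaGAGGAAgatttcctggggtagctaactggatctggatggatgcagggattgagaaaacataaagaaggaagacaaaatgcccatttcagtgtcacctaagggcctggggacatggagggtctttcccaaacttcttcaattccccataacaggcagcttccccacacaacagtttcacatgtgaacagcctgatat
The Cd163 window held neither motif. Cd5l had the PU.1 core on the opposite strand at position -66 and the MAF core on both strands, at -54 and -46, and Marco had the PU.1 core on its own strand at -146, counted from the gene's start to the first printed base of the motif. Of 32544 distinct windows of 300 bases around all gene starts, 28.1% held the PU.1 core and 19.5% held the MAF core on either strand. The MAF core followed, 2 bases on, by its own reverse complement, as in Cd5l, was held by 0.00615% of them, or 2 windows. A match is a description of these letters, and the absence of one concerns this window alone. The GC content of the Cd163 window was 38%, against 46.3% for Cd5l, 47.3% for Marco and a median of 53% over all windows.

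Cd163 was close to the noise of the method, and closest in the HIRA KO areas. Over all kept cells of both groups it had 3935 counts, against 11983 for Cd5l, 10359 for Slc40a1, 4610 for Marco and 4339 for Csf1r. The 10 negative probes, which match no mouse transcript, ranged from 1107 to 3828 counts. Cd163 was thus 1.03 times the highest negative probe and 1.36 times their mean, and it ranked 743 of 1000 genes. In the control areas alone Cd163 had 1926 counts, 1.71 times the mean negative probe, beside 1866 for Csf1r (1.65 times) and 1817 for Marco (1.61 times). In the HIRA KO areas it had 2009 counts, 1.13 times the mean negative probe, beside 2473 for Csf1r and 2793 for Marco. Counts of different genes depend on their probes, so each gene is compared here between cells or areas and not with another gene's level.

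The members differed in how far they were concentrated in the cells that Cd5l and Marco chose. In the control areas 20.1% of all Cd163 counts lay in these cells, beside 17.7% for Slc40a1 and 21.9% for Csf1r. In the HIRA KO areas the share was 13.8% for Cd163, beside 23% for Slc40a1 and 26.8% for Csf1r, so the order of Cd163 and Slc40a1 turned between the groups. Over both groups a Cd163 count was found in 15.6% of the chosen cells and in 6.32% of the other cells, for Slc40a1 the shares were 40.4% and 14.4%, and for Csf1r 24.1% and 6.29%. The shares of the genes that made the choice were 90.9% and 9.04% for Cd5l, and 42.4% and 5.00% for Marco.

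The chosen cells carried macrophage genes that took no part in the choice. The C1q chains C1qa, C1qb and C1qc, complement components made by tissue macrophages, were higher inside than outside by 1.85, 1.84 and 1.71 on the log2 scale (mean of 6 areas), in all 6 areas. Csf1r followed at 1.40 and ranked 4 of 755 genes, Slc40a1 stood at 1.14 and ranked 5, and Cd68, a lysosomal macrophage protein, at 0.93. The Kupffer cell markers Clec4f, Vsig4, Timd4 and Adgre1 are not on the panel. Cd163 was higher inside by 0.86 ± 0.59 (SD, n = 6 areas), also in all 6 areas, and this mean held different groups. It was 1.34 ± 0.35 in the control areas and 0.38 ± 0.23 in the HIRA KO areas (SD, n = 3), while for Slc40a1 the means were 1.11 and 1.18 and for Csf1r 1.5 and 1.31.

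Cd163 was lower in the chosen cells of HIRA KO livers, while Slc40a1 and Csf1r did not pass the test. Summed over the chosen cells of an area, Cd163 reached 1795, 1264 and 1806 CPM (counts per 1000000 gene counts of the summed cells) in the 3 control areas, and 715, 535 and 566 CPM in the 3 HIRA KO areas. Every control area was above every HIRA KO area, with means of 1622 ± 310 and 605 ± 96.4 CPM (SD, n = 3), a 2.68-fold difference. These levels rest on 123 to 133 Cd163 counts per control area and 65 to 143 per HIRA KO area. Within each of the 3 slide rows, which hold 1 area of each group, the control area was 2.51-fold, 2.36-fold and 3.19-fold higher.

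The edgeR quasi-likelihood test gave Cd163 a log2 fold change of -1.34 (SE 0.20, adjusted p = 0.00433 over 998 genes). Cd163 was the only gene called lower in HIRA KO, a background of 0.100%, and 9.82% of the 998 genes were lower without overlap of the areas, beside 3.01% higher. The single gene called higher was Igha, the heavy chain of immunoglobulin A, at 1.90 (adjusted p = 0.00463 in edgeR). Cd163 was chosen for this contrast, so the test restates why the gene is described here.

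**Figure D1:**
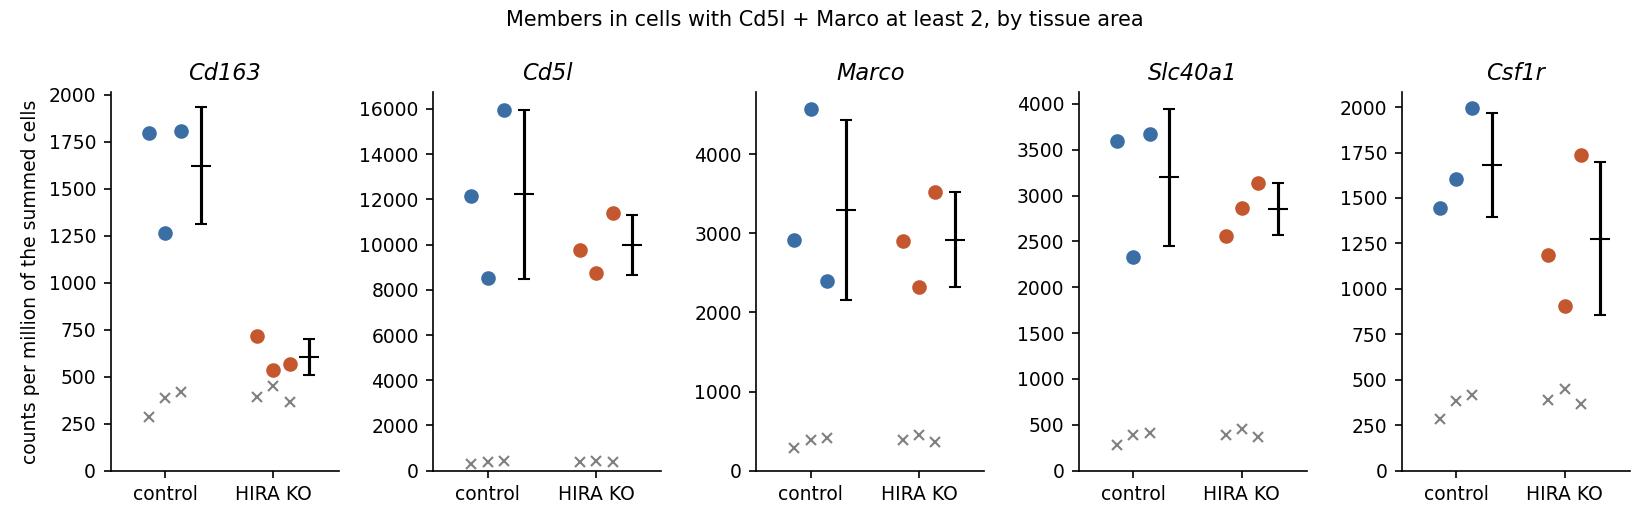
Level of each of the 5 members (y axis, CPM of the summed cells) in the cells with at least 2 counts of Cd5l and Marco together, with 1 point per tissue area (3 control, 3 HIRA KO) bars for the mean ± SD, and crosses for the mean negative probe. The control areas lie between 1264 and 1806 CPM for Cd163 and the HIRA KO areas between 535 and 715 CPM, while the areas of the other 4 members overlap between the groups.

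The level of Cd163 in HIRA KO livers was close to that of probes without a target. The mean negative probe stood at 283, 385 and 416 CPM in the chosen cells of the control areas and at 389, 449 and 368 CPM in those of the HIRA KO areas. Above the mean negative probe, Cd163 reached 1512, 879 and 1390 CPM in the control areas and 326, 85.2 and 198 CPM in the HIRA KO areas. The group means of these differences were 1260 and 203 CPM, a 6.21-fold difference (p = 0.1 in a two-sided exact permutation test, which cannot go lower with 3 against 3 areas). In HIRA KO area 2 Cd163 was below the highest negative probe, at 597 CPM, and in areas 1 and 3 it was above it, at 616 and 538 CPM.

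Slc40a1, the iron exporter, stood at 3590, 2333 and 3667 CPM in the control areas and 2563, 2867 and 3135 CPM in the HIRA KO areas. The groups overlapped, with a log2 fold change of -0.07 (SE 0.26, adjusted p = 0.966 in edgeR). Csf1r, the CSF1 receptor, stood at 1444, 1603 and 1997 CPM against 1188, 907 and 1734 CPM, again with overlap and with a log2 fold change of -0.27 (SE 0.25, adjusted p = 0.896 in edgeR). Within the slide rows Csf1r was 1.22-fold, 1.77-fold and 1.15-fold higher in the control area. Without HIRA KO area 3 the Csf1r change was -0.67 (adjusted p = 0.361 in edgeR).

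The genes that chose the cells had similar ranges in both groups. Cd5l was at 12161, 8529 and 15966 CPM in control areas and 9747, 8765 and 11390 CPM in HIRA KO areas. Marco was at 2915, 4573 and 2394 CPM against 2904, 2325 and 3523 CPM. For both genes the areas of the groups overlapped.

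Set against the other members of the same cells, Cd163 was lower in HIRA KO for each partner. Per 100 counts of Slc40a1 there were 50, 54.2 and 49.3 counts of Cd163 in the control areas and 27.9, 18.6 and 18.1 in the HIRA KO areas, a log2 difference of -1.28 (p = 0.1 by the same exact test). Per 100 counts of Cd5l the values were 14.8, 14.8 and 11.3 against 7.34, 6.10 and 4.97. Per 100 counts of Csf1r they were 124, 78.8 and 90.4 against 60.2, 59.0 and 32.6, and per 100 counts of Marco 61.6, 27.6 and 75.4 against 24.6, 23 and 16.1. The areas did not overlap for any of the 4 partners, but the 4 ratios share the counts of Cd163 and are not 4 separate results. By level, 9.82% of the 998 genes were lower without overlap in these cells, and no such share was computed for ratios.

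The lower Cd163 was spread over the fields of view. Among the 25 control fields, with 19 to 84 chosen cells each, the lowest Cd163 level was 445 CPM, the median 1439 CPM and the highest 3857 CPM. Among the 25 HIRA KO fields, with 24 to 197 chosen cells each, these values were 153, 457 and 1294 CPM. Of the control fields 15 were above the highest HIRA KO field, and all 25 HIRA KO fields were below the control median. The field medians of Slc40a1 were 3195 CPM in controls and 2790 CPM in HIRA KO. The field levels rest on 2 to 40 Cd163 counts in control and 1 to 58 in HIRA KO fields, so single fields carry large counting error. The highest HIRA KO field held 58 of the 143 Cd163 counts of HIRA KO area 3. Fields of an area are not replicates, and these values carry no test.

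The groups differed in the same direction on both sides of the minimum of 2 counts. In the cells just outside it, with 1 count of Cd5l or Marco, Cd163 stood at 831 CPM over 2825 control cells and at 473 CPM over 3686 HIRA KO cells. In the cells just inside, with 2 counts, it stood at 1328 CPM over 819 control cells and at 498 CPM over 1042 HIRA KO cells. In cells with 6 or more counts the values were 2979 and 810 CPM, with mean negative probes of 219 and 328 CPM. Slc40a1 went from 1904 CPM in control and 1677 CPM in HIRA KO cells with 1 count to 4233 and 4814 CPM in cells with 6 or more.

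**Figure D2:**
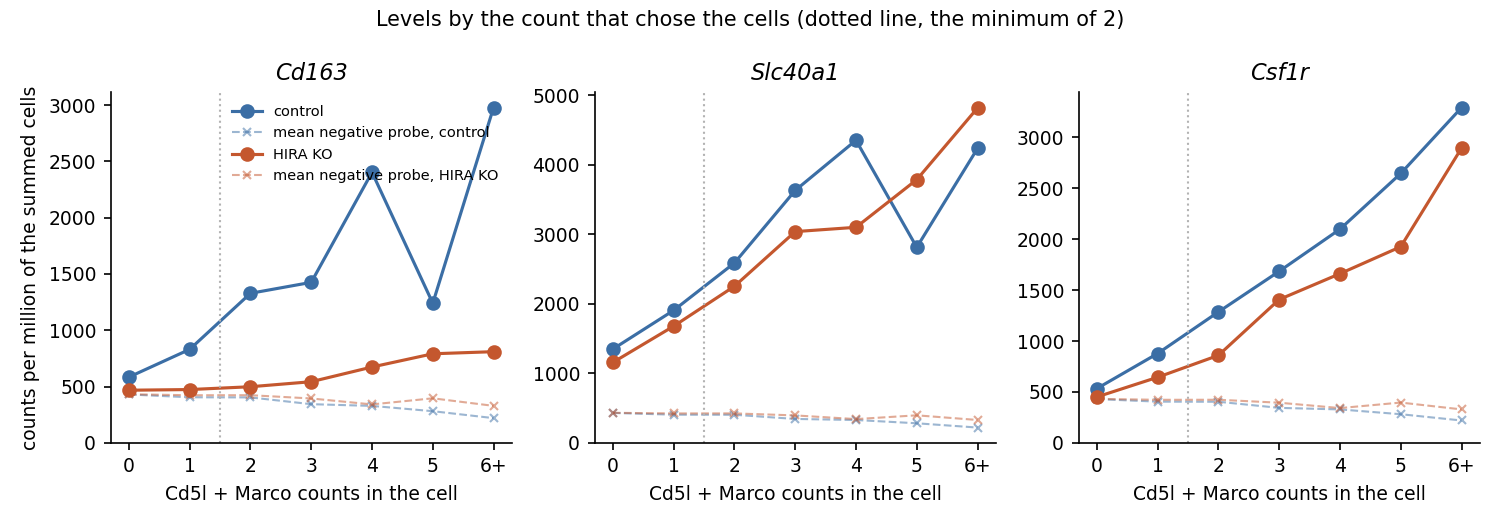
Levels of Cd163, Slc40a1 and Csf1r (y axis, CPM of the summed cells) by the number of Cd5l and Marco counts in the cell (x axis, 0 to 6 or more), with solid lines for the groups and dashed lines with crosses for the mean negative probe of each group. The Cd163 lines reach 2979 CPM in control and 810 CPM in HIRA KO cells at 6 or more counts, whereas the Slc40a1 lines reach 4233 and 4814 CPM.

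Cells chosen without any member gave Cd163 the same direction. Cells with 3 or more counts of C1qa, C1qb and C1qc together gave Cd163 a log2 fold change of -1.33 (adjusted p = 0.000563 in edgeR). In the 2902 of these cells that had under 2 counts of Cd5l and Marco, and so shared no cell with the chosen set, Cd163 was at 1229, 898 and 1080 CPM in control areas and at 558, 518 and 383 CPM in HIRA KO areas. The areas did not overlap, as for 12.1% of the panel in that direction, and the log2 fold change was -1.03 (adjusted p = 0.0113 in edgeR). Csf1r also separated there, with means of 1445 and 962 CPM in the disjoint cells and of 1816 and 1272 CPM in all cells with 3 or more C1q counts, where 10.3% of the panel did so, but its log2 fold change of -0.48 in the disjoint cells missed the threshold (unadjusted p = 0.0183, adjusted p = 0.676 in edgeR). The same section and areas underlie both sets of cells, so the second is no independent sample.

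Hepatocyte transcripts moved with the group in the chosen cells. The 10 hepatocyte markers on the fixed list took 3.40 to 4.75% of the counts of these cells in control areas and 5.64 to 7.42% in HIRA KO areas, without overlap. Among chosen cells with a hepatocyte marker share at or below the median, the Cd163 log2 fold change was -1.53 (adjusted p = 0.000763 in edgeR, background 0.101%). The part of hepatocyte transcripts in the Cd163 difference was not tested. Of the other 10 marker lists, that of endothelial cells also did not overlap, at 1.04 to 1.09% in control and 0.932 to 0.979% in HIRA KO areas, and its part in the result was not tested. The rest overlapped between the groups, with means in control and HIRA KO of 2.40% and 2.77% for monocyte and dendritic, 0.730% and 0.942% for B and plasma, 1.89% and 1.64% for stellate and 0.790% and 0.976% for biliary cells. Among the biliary markers, Clu stood at 1.03 and Spp1 at 1.08 on the log2 scale in these cells, above 0.05 in edgeR (adjusted p = 0.0509 for both) and called higher in HIRA KO by DESeq2 (adjusted p = 5.59e-05 and 0.00691). The macrophage list without members took 1.99% and 1.88%.

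Across 17 other settings the Cd163 difference stayed below 0, from -1.95 to -1.03, and in 15 of them Cd163 passed the test as the only gene called lower (0.100% to 0.133% of the genes tested). It no longer passed without control area 1 (-1.26, adjusted p = 0.104 in edgeR) or without HIRA KO area 2 (-1.24, adjusted p = 0.0581 in edgeR). The settings reuse the same tissue areas, and Cd163 was chosen for this contrast. They show how the value depends on the processing and add no independent support.

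**Figure D3:**
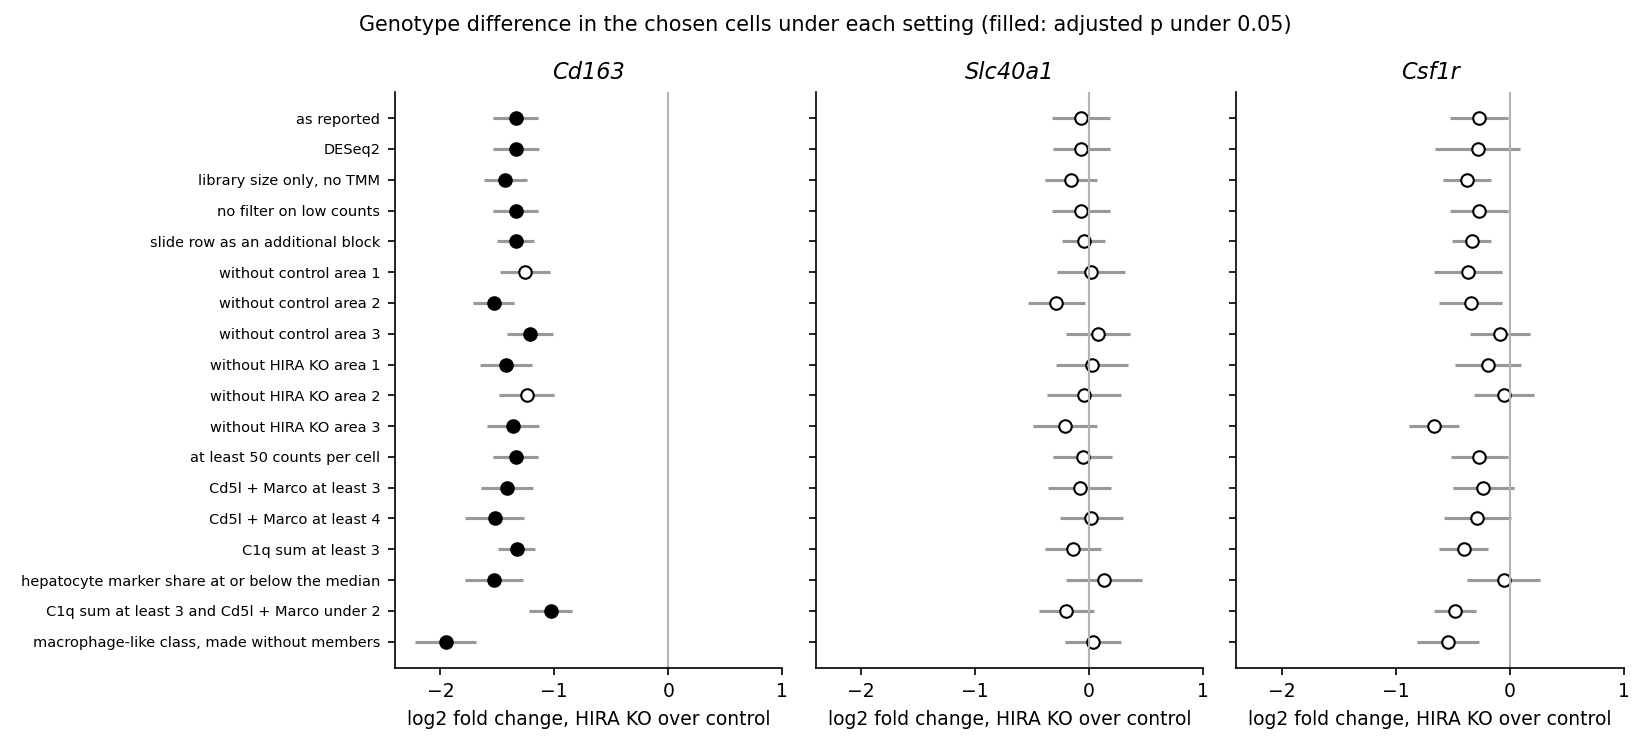
Log2 fold change of Cd163, Slc40a1 and Csf1r between HIRA KO and control in the chosen cells (x axis) under each setting (y axis), with bars for the standard error and filled points where the adjusted p was under 0.05. For Cd163 every point lies between -1.95 and -1.03, while no point of Slc40a1 or Csf1r is filled.

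Over all kept cells the differences were smaller on the CPM scale. There a fall in Cd163 per cell cannot be told apart from fewer cells that carry it. Cd163 was at 691, 712 and 755 CPM in control areas and 543, 493 and 410 CPM in HIRA KO areas, without overlap, as for 16.7% of all genes in that direction. Above the mean negative probe the group means were 299 ± 29.8 and 57.5 ± 61.6 CPM (SD, n = 3), a 5.20-fold difference. The HIRA KO mean was smaller than its SD, so this fold is uncertain. Its log2 fold change of -0.47 (SE 0.11, adjusted p = 0.208) missed the threshold in edgeR, passed it in DESeq2 (adjusted p = 0.00166) and passed it with the slide row as a block (adjusted p = 0.0216 in edgeR). None of the other 4 members passed in edgeR, DESeq2 or the blocked fit, with edgeR log2 fold changes from -0.08 for Csf1r to 0.17 for Marco, and 1 of the 5 members, Cd163, had an unadjusted p under 0.05 in edgeR.

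On the CPM scale the Cd163 difference was larger inside the chosen cells than outside them. Outside, Cd163 stood at 592, 656 and 636 CPM in control areas and at 530, 489 and 373 CPM in HIRA KO areas, without overlap, as for 17.8% of the panel, and with a log2 fold change of -0.32 (adjusted p = 0.552 in edgeR). Above the mean negative probe, however, the outside means were 202 CPM in control and 36.1 ± 74.8 CPM in HIRA KO areas, a 5.60-fold difference beside the 6.21-fold inside. The outside HIRA KO mean was smaller than its SD, so the 5.60-fold value is uncertain. In CPM above the mean negative probe, HIRA KO minus control was -166 outside and -1057 inside. On the CPM scale the difference between the inside and outside changes was -0.95 (SE 0.17, adjusted p = 0.0204 in edgeR), and 0.200% of genes were called in that direction. The other gene called was Cd74, the invariant chain of antigen presentation, at -0.60. The same quantity was 0.06 for Slc40a1 (adjusted p = 0.961 in edgeR) and -0.13 for Csf1r (adjusted p = 0.932 in edgeR). The Cd163 call was lost without control area 1 (-0.82, adjusted p = 0.459 in edgeR) and without control area 3 (-0.85, adjusted p = 0.263 in edgeR), and likewise when HIRA KO area 1 (-0.96, adjusted p = 0.160 in edgeR) or area 2 of that group (-0.82, adjusted p = 0.0861 in edgeR) was left out.

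At equal depth the share of chosen cells with Cd163 was smaller in each HIRA KO area than in any control area. With every cell thinned to 60 gene counts, Cd163 was found in 10.3%, 6.81% and 9.88% of the chosen cells of the control areas and in 4.78%, 2.71% and 2.50% of those of the HIRA KO areas. The means were 8.99 ± 1.90% and 3.33 ± 1.26% (SD, n = 3), which again gave the minimum of the exact test, p = 0.1. For how many genes of the panel such shares separate was not computed, and by level 9.82% of genes were lower without overlap in these cells. In hepatocyte-like cells, which should lack the gene, the share at the same depth was 4.0 ± 1.4% and 2.9 ± 0.8%. The HIRA KO areas were thus near this background. Without thinning the shares in chosen cells were 21.2% and 12.0%, at median depths of 144 to 202.5 counts per cell in control and 189 to 230 in HIRA KO areas, against 125 to 211 and 164 to 236 in hepatocyte-like cells.

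At 60 counts Slc40a1, Cd5l and Marco were found in similar shares of the chosen cells in both groups. Csf1r had a smaller mean share in HIRA KO. Slc40a1 was in 16.1% of control and 16.8% of HIRA KO cells, Csf1r in 10.1% and 7.26%, Cd5l in 55.8% and 51.9%, and Marco in 20.2% and 18.6%. The chosen cells themselves made up 5.11%, 6.53% and 6.64% of all cells in the control areas and 4.27%, 5.29% and 13.3% in the HIRA KO areas. The areas overlapped (exact permutation test, two-sided, p = 0.9), with HIRA KO area 3 far above the others.

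Across cell classes built from marker lists without the members, each of the 5 members was highest in the macrophage-like class. Cd163 there was at 2559, 2146 and 2671 CPM in the control areas and at 797, 460 and 592 CPM in the HIRA KO areas, a log2 fold change of -1.95 (adjusted p = 3.59e-05 in edgeR, background 0.107%, 1286 cells). The areas did not overlap, as for 8.10% of the panel. At 60 counts Cd163 was found in 12.7 ± 1.28% of the control and 3.10 ± 1.03% of the HIRA KO cells of this class (SD, n = 3).

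In the control areas Cd163 had its highest means in 3 classes. Macrophage-like cells stood at 2459 ± 277 CPM, monocyte or dendritic-like cells at 1196 ± 341 CPM and stellate-like cells at 835 ± 45.7 CPM (SD, n = 3). The other 7 classes and the cells in no class had means from 269 CPM in myofibroblast-like cells to 743 CPM in B-lineage-like cells, with hepatocyte-like cells at 484 ± 128 CPM, and most neighbours in that range did not differ beyond their spread. In the HIRA KO areas macrophage-like cells stood at 616 ± 170 CPM, and the means of the others ran from 316 CPM in B-lineage-like to 516 CPM in unnamed cells. The lowest macrophage-like area (460 CPM) was above the highest of B-lineage-like (374 CPM), cholangiocyte-like (414 CPM) and myofibroblast-like cells (421 CPM). The areas of the other classes and of unnamed cells overlapped those of macrophage-like cells. Hepatocyte-like cells in the HIRA KO areas stood at 420 ± 58.2 CPM and stellate-like cells at 478 ± 89.4 CPM. Slc40a1 in macrophage-like cells was at 4598 CPM in control and 4452 CPM in HIRA KO areas, and Csf1r at 3011 ± 712 and 1910 ± 556 CPM. Cd5l in this class was at 11555 and 9734 CPM and Marco at 2263 and 2193 CPM, while in the class next in order Cd5l was at 4283 and 3129 CPM (monocyte or dendritic-like) and Marco at 688 and 703 CPM (T or NK-like). Of the cells kept, 34002 fell in no class.

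**Figure D4:**
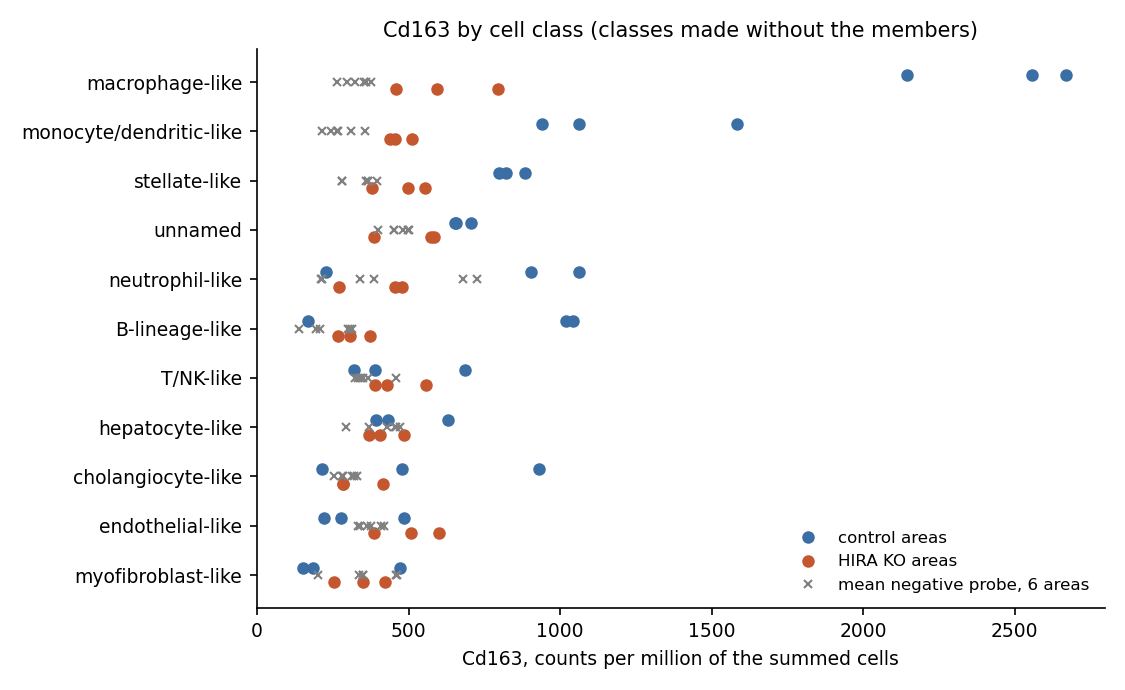
Cd163 level (x axis, CPM of the summed cells) in each cell class (y axis), with 1 point per tissue area and crosses for the mean negative probe. Control areas reach 2146 to 2671 CPM in the macrophage-like class, while HIRA KO areas reach 460 to 797 CPM there.

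The genes most like the members over the 11 classes included C1q chains for Cd163, Cd5l and Csf1r. For Cd163 the closest were C1qb (Pearson r 0.68, mean of 6 areas over 11 classes), C1qa (0.66), C1qc (0.65), and Fcer1g (0.65) and Tyrobp (0.64), which encode signalling adaptors of myeloid receptors. C1qa was closest to Cd5l (0.89), C1qb to Csf1r (0.74), the scavenger receptor gene Msr1 to Slc40a1 (0.68), and Ptgs1, a prostaglandin synthase, to Marco (0.67). The C1q chains and Msr1 were among the markers that built the macrophage-like class, where each member was highest. Their likeness to the members was therefore partly fixed in advance. The classes of an area share its section and depth, and these values are a description.

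Other macrophage genes in the chosen cells did not pass the test in either direction. On fixed lists, 0 of 21 Kupffer and macrophage genes, 0 of 6 scavenger receptor genes, 0 of 4 iron and haem genes, 0 of 8 genes of the CSF receptor axis, 0 of 18 genes of recruited or lipid-associated macrophages and 0 of 9 anti-inflammatory genes were called in edgeR, against the background of 0.100% in each direction. Of the 62 genes on these lists, 6 (9.68%) had an unadjusted p under 0.05, 5 of them higher in HIRA KO, beside 63 (6.31%) of all 998 genes, and DESeq2 called 1, Spp1. The median log2 fold changes of the lists, in that order, were 0.06, -0.09, 0.09, -0.10, 0.21 and -0.12, beside -0.003 over all genes. Spp1 (osteopontin), made by lipid-associated macrophages and by bile duct cells, stood at 1.08 (adjusted p = 0.0509 in edgeR). The 5 higher genes with an unadjusted p under 0.05 were Cd36, Cd4, Gpnmb, S100a8 and Spp1, and the lower gene was Il1rn. Msr1, the scavenger receptor closest in kind to Marco, was the lowest of the scavenger receptor list at -0.31 (adjusted p = 0.842 in edgeR). The highest of that list was Cd36 at 0.39 (adjusted p = 0.761 in edgeR).

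Joint detection of the members in single cells did not pass the test at equal depth. In the chosen cells at 60 counts, Cd163 and Slc40a1 were found together in 42 of 3136 cells, with a log2 odds ratio of 0.68 ± 0.90 (SD, n = 6 areas, above 0 in 5 of 6 areas, exact sign-flip test, adjusted p = 0.563 over 3 pairs). Cd163 and Csf1r gave 0.15 with 17 cells (exact test, adjusted p = 0.906), and Slc40a1 and Csf1r gave 0.05 (exact test, adjusted p = 0.906). At 100 counts these pairs gave 0.61, 0.51 and 0.75, so the values depended on the depth chosen. The last, Slc40a1 with Csf1r, was above 0 in 6 of 6 areas, at the smallest possible p (0.0313, exact sign-flip test, adjusted p = 0.0938). A single pair at that p could not pass over 3 pairs, so a miss does not show that joint detection is absent. With all counts kept the 3 pairs gave 0.78, 0.50 and 1.09, above 0 in all 6 areas (exact sign-flip test, adjusted p = 0.0313, the smallest possible), where deeper cells hold more of every gene.

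In the cells chosen by C1q all 10 pairs could be tested at 60 counts. Cd5l with Slc40a1 gave 0.92 ± 0.22, Cd5l with Marco 0.82 ± 0.23, Marco with Slc40a1 0.76 ± 0.45 and Cd163 with Marco 0.75 ± 0.51 (SD, n = 6 areas). These 4 pairs were above 0 in 6 of 6 areas, at the smallest p the exact sign-flip test allows (0.0313). After adjustment over 10 pairs they missed the threshold (0.0781), which only 4 pairs at that p could not pass. The Cd163 and Marco value rested on 27 cells with both, 1 each in HIRA KO areas 1 and 2, and at 100 counts it was 0.31 ± 1.39, with Marco and Slc40a1 at 0.45, both above 0 in 5 of 6 areas. Cd163 with Cd5l gave 0.57, above 0 in 5 of 6 areas (exact test, adjusted p = 0.104), and Cd163 with Slc40a1 gave 0.14 (exact test, adjusted p = 0.719).

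Few genes were called between chosen cells with and without a Cd163 count. At 60 counts there were 40, 29 and 42 cells with Cd163 in the control areas and 20, 14 and 24 in the HIRA KO areas. Of the members, 0 of 4 were called in edgeR, and 0 had an unadjusted p under 0.05 in edgeR or DESeq2. Their log2 differences were 0.17 for Csf1r, 0.14 for Slc40a1, -0.01 for Cd5l and -0.16 for Marco, beside a median of -0.34 over the 670 genes tested. Against a background of 0.299% called lower, the 2 genes were Gc, the vitamin D binding protein of hepatocytes (-1.37, adjusted p = 0.0126 in edgeR), and Pdgfb, named after its value was seen (adjusted p = 0.0199 in edgeR). Pdgfb had 0 counts in the cells with Cd163 and was at least 3.02-fold lower there, against a floor of 3 counts over all 6 areas. DESeq2 called 0 genes, with 20 at an unadjusted p under 0.05.

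No stain or size measure passed after adjustment, and with 6 areas a single measure at the smallest possible p (0.0313) could not pass over 6 measures. The cell area of chosen cells with Cd163 minus that of those without was -0.50 ± 0.26 on the log2 scale (SD, n = 6, below 0 in 6 of 6 areas, exact sign-flip test, adjusted p = 0.188 over 6 measures). For the CD45 stain, a marker of blood-derived cells, the difference was 0.41 ± 0.46 in log2 intensity, above 0 in 5 of 6 areas (exact test, adjusted p = 0.188). The size difference turned to 0.18 when cells were split at full counts, where larger cells hold more counts.

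Cd163 did not pass the test along the liver lobule. Each chosen cell was placed between the nearest landmark for the central vein (cells highest for Glul, the pericentral glutamine synthetase) and the nearest landmark for the bile duct (cells highest for biliary markers), each the top 2% of cells of an area, and the cells of an area were divided by this position into 3 bins. In edgeR 0 of the 5 members were called between the bins at the pericentral and the biliary end, where 0.101% of genes were called lower (1 of 986 genes) and 0 higher. No member had an unadjusted p under 0.05 in edgeR or DESeq2. The log2 differences, pericentral over biliary, were -0.01 for Cd163, 0.04 for Slc40a1, -0.15 for Csf1r, -0.04 for Cd5l and -0.10 for Marco. Cd163 was at 1648 CPM in control and 640 CPM in HIRA KO areas in the biliary bin, at 1557 and 606 CPM in the middle bin and at 1672 and 574 CPM in the pericentral bin, without overlap of the areas in any bin. The share of genes without overlap was not computed per bin, and over all chosen cells it was 9.82% in that direction. The landmark cells were sparse in counts, with a median of 1 to 12 Glul counts.

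With landmarks taken from sums over 21 neighbouring cells, which were added after the data were seen, Marco differed between the biliary and the pericentral bin. In the cells chosen by C1q, which leave Marco out of the choice, Marco in the biliary and the pericentral bin was at 1154 and 1148, 2359 and 998, and 1236 and 943 CPM in the 3 control areas. In the HIRA KO areas it was at 759 and 697, 698 and 502, and 2496 and 1091 CPM. Marco was higher in the biliary bin in 6 of 6 areas, by little in control area 1, and the log2 difference, pericentral over biliary, was -0.68 (SE 0.14, adjusted p = 0.00454 in edgeR). In this fit 0.302% of genes were called lower and 0.907% higher. The call was lost without control area 2 (-0.55, adjusted p = 0.129 in edgeR) and without HIRA KO area 3 (-0.47, adjusted p = 0.409 in edgeR), and with the single-cell landmarks the value was -0.17 (adjusted p = 0.885 in edgeR). The bins from 21 cells were not shown to be lobule ends. For Cd5l and Marco cells, the pericentral bin lay nearer biliary than Glul landmarks in control area 2 (medians 689 and 963 pixels). The same held in HIRA KO areas 2 and 3, and the reverse in control areas 1 and 3 and HIRA KO area 1. Arg1, a periportal hepatocyte gene, stood at 2293 ± 300 CPM (SD, n = 6 areas) over all cells of the biliary bin. In the pericentral bin Arg1 stood at 2698 ± 500 CPM.

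**Figure D5:**
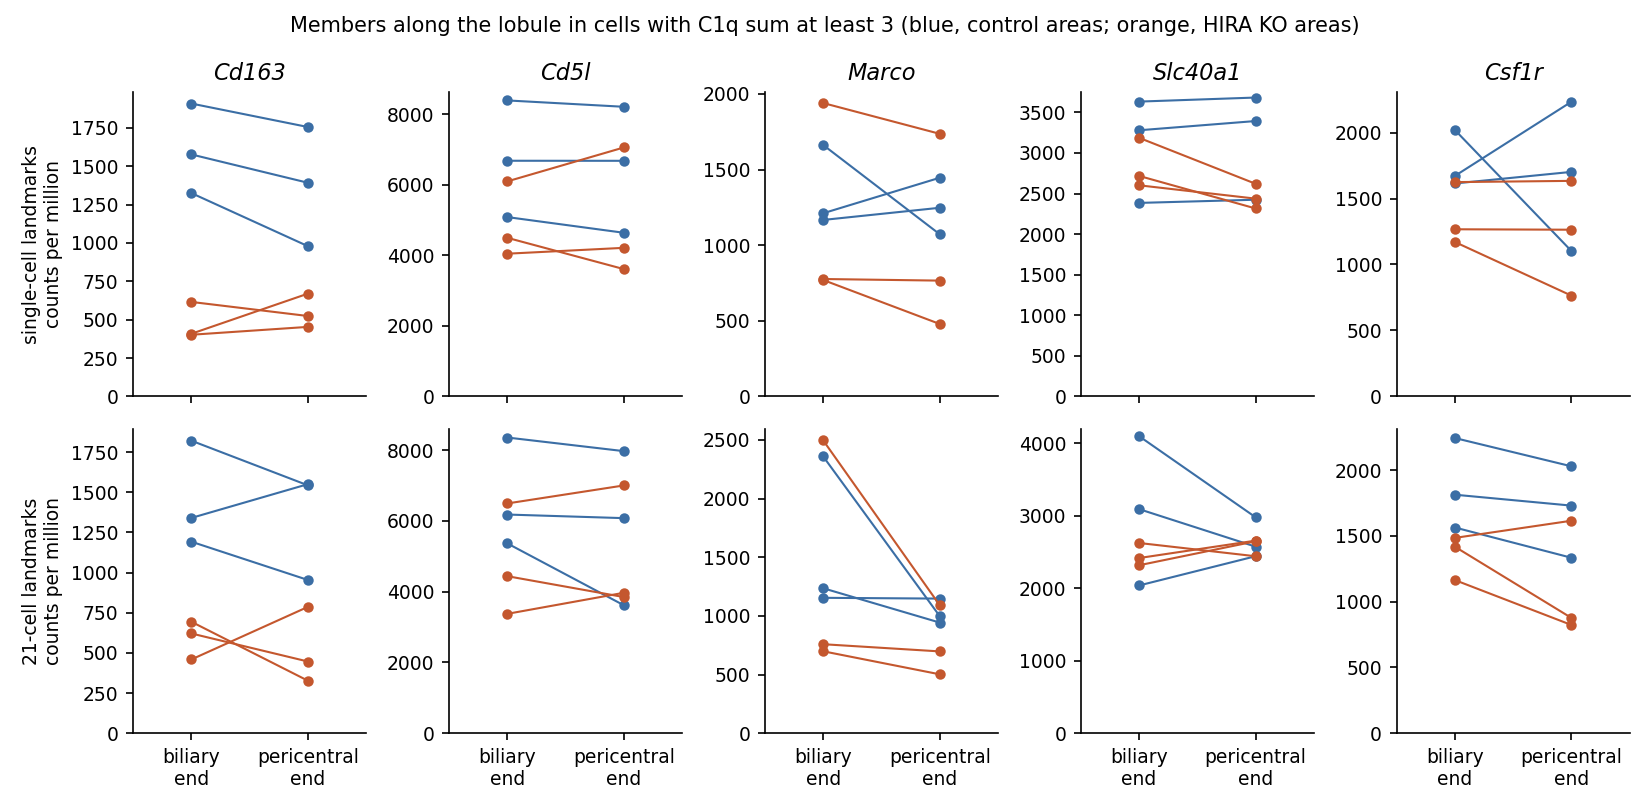
Levels of the members (y axis, CPM of the summed cells) in the bin at the biliary and at the pericentral end (x axis) of cells with at least 3 C1q counts, with 1 line per tissue area (blue control, orange HIRA KO), for single-cell landmarks in the upper row and landmarks from 21 cells in the lower row. In the lower row all 6 Marco lines are higher at the biliary end, with means of 1450 and 897 CPM.

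The members had different nuclear shares, given here without a test. The nuclear share of the transcripts assigned to cells was 46.2 ± 2.9% for Cd163 and 47.2 ± 2.3% for Slc40a1, beside 48.1 ± 3.8% for all genes (SD, n = 6 areas). It was 37.5 ± 2.5% for Cd5l and 39.6 ± 3.4% for Marco, and 52.6 ± 5.0% for Csf1r. Of the Cd163 transcripts 6.33% lay outside cells, against 6.84% for all genes.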

How the data were processed

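The authors deposited raw counts per cell of the gene targets and negative probes, cell metadata with mean stain intensity (CD45, CD3, B2M, PanCK, DAPI), and transcript positions with compartments, from decoding and segmentation by the CosMx platform. The authors' normalized values are not analysed here. As in the study's methods, cells under 20 counts (2215 of 52132) or over 5 times the geometric mean area (252) were left out. Counts were summed per tissue area (718991 to 1542205 gene counts) and tested with edgeR 4.0.16 in R 4.3.3 (TMM, filterByExpr, quasi-likelihood, Benjamini-Hochberg, threshold 0.05), after a check on simulated data. DESeq2 1.42.0, library size scaling, filters, other choices of cells, the slide row as a block and areas left out were alternatives. Single values used exact permutation or sign-flip tests, which went through all arrangements of the areas (Python 3.11.15). Shares were compared after thinning to 60 counts, and cells were classed by at least 3 marker counts. The members and lists were chosen with earlier results of these data known. Besides the members, genes were named by the rule of the largest fold changes past the threshold with 1 direction in every area or no overlap of the groups, and by likeness over classes. Cell outlines were not used. Shares and counts carry counting error only where no spread over areas is given.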

Additional observations from a re-analysis of the deposited data

Results flagged for a closer look

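The genotype difference of Cd163 differed between cells inside and outside the Cd5l and Marco choice. The difference of the log2 fold changes was -0.95 by a test of the difference itself, in which inside and outside sums of the same areas entered 1 fit. Outside the chosen cells Cd163 stood at 592 to 656 CPM in control areas, above the highest negative probe of each area (534 to 618 CPM). In HIRA KO areas it stood at 373 to 530 CPM, below the highest negative probe of each area (536 to 630 CPM). The mean negative probe was at 371 to 458 CPM over the areas of both groups. Above the mean negative probe, HIRA KO minus control was -1057 CPM inside and -166 CPM outside. The control over HIRA KO fold there was 6.21 inside and 5.60 outside. The outside fold divides by a HIRA KO mean of 36.1 ± 74.8 CPM (SD, n = 3), smaller than its SD. Whether the folds differ after subtraction of the floor therefore cannot be told from these values.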

How the results depend on the processing

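Of 112 alternatives to the main values and counts, 90 were counted as unchanged. Tested values in this count kept their side of the threshold. Values whose exact test of 3 against 3 areas cannot pass stayed within 1 SD of the spread between areas. Counts stayed within 1.5 times the main count. A further 6 lost the threshold, 2 gained it, 14 moved further and 0 reversed. Reversed meant a change of sign where the main or the alternative value passed the threshold. Other changes of sign were not counted as reversed. In the chosen cells, leaving out 1 area moved the Cd163 log2 fold change between -1.53 and -1.21, and the difference inside minus outside between -1.18 and -0.82. Over all cells Cd163 passed with DESeq2 (-0.46) and with the slide row as a block (-0.47). The slide row was the only pairing that could be made, and with it Cd163 in the chosen cells was at -1.34. The count of genes that differed between cells with and without Cd163 went from 2 to 0 with DESeq2, 0 with library size scaling, 0 at 100 counts, 0 in control areas alone, 0 in HIRA KO areas alone and 1 at full counts, and to between 0 and 3 with 1 area left out. The share of chosen cells with Cd163 differed, HIRA KO minus control, by -9.13 percentage points at full counts and -8.51 at 100 counts, against -5.66 at 60 counts. Co-detection passed for 3 pairs at full counts and for 0 at 60 counts.

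Counts of called genes moved more than the members did. In the chosen cells the 2 genes called became 7 with DESeq2, 4 with library size scaling, 11 with the slide row as a block, 6 and 4 at a minimum of 3 and 4 counts, 4 in cells chosen by C1q, 8 at a low hepatocyte share, 4 in the macrophage-like class and 0 to 5 with 1 area left out. Over all cells 2 became 10 with DESeq2, 1 with library size scaling, 17 with the block and 1 to 3 with 1 area left out. Along the lobule 1 became 0 with DESeq2, 2 with the top 1% as landmarks, 0 with the distance to Glul landmarks alone, 7 with landmarks from 21 cells, 7 in C1q cells, 12 with both and 0 to 2 with 1 area left out. Inside against outside 2 became 1 with DESeq2, 1 with C1q and 0 to 4 with 1 area left out. Library size scaling moved the median of all genes by -0.10 in the chosen cells and -0.12 over all cells. The split of cells by Cd163 rested on 14 to 42 cells with Cd163 per area. Alternatives with disjoint C1q cells, the macrophage-like class, cells outside the choice, landmarks from 21 cells and single groups were added after seeing the data.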
